A study of Mus musculus with 10 samples.

Results

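A group of 7 secreted defence genes was followed in the mammary gland: Ptx3, Pglyrp1, Reg3g, Chil1, Defb1, Lyz1 and Lyz2, found by gene symbol among the 35275 genes of the deposited table, where all 7 had a row. They were compared between glands given lipopolysaccharide (LPS), the endotoxin of Gram-negative bacteria, and glands given phosphate-buffered saline (PBS), with 5 RNA-seq libraries in each group. Every gland came from a BALB/c mouse, an inbred strain with no stated genetic change, at day 3 of lactation. LPS glands had received 50 µL of E. coli 055:B5 LPS at 0.4 mg/mL through the teat, PBS glands the same volume of sterile buffer, and tissue was taken 12 h later. Per the labels, the sides of the 4th gland pair were given LPS and PBS in alternation, so a PBS gland lay in an animal whose other gland had received LPS. The labels give n = 9 without saying which mice the 10 libraries came from, so the p-values rest on the variation among these libraries, which may share animals.

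The products of these genes belong to the soluble arm of innate immunity. Pattern recognition proteins such as pentraxins, peptidoglycan recognition proteins and Reg lectins bind structures on microbial surfaces, which marks the microbe for complement and phagocytes or kills it directly. Lysozymes cut the peptidoglycan of bacterial walls, and beta-defensins are small cationic peptides that disturb microbial membranes. In the mammary gland such proteins can come from the secretory epithelium, which releases them into milk, and from resident or arriving leukocytes.

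Levels are FPKM, fragments scaled by gene length in kilobases and by library size, from 15734303 to 18869545 counted reads per library. In these libraries 1 read on a gene of 1 kb equalled 0.053 to 0.0636 FPKM. A change is the mean log2(FPKM + 1) of the LPS glands less that of the PBS glands, with its standard error, a scale that understates the change of genes near or under 1 FPKM. The tissue label fitted the data, since the milk protein gene Wap had 40087 to 67094 FPKM in LPS glands and 61240 to 80274 FPKM in PBS glands, and the epithelial adhesion gene Epcam 224 to 325 and 231 to 328 FPKM. The libraries also held leukocyte, endothelial and connective tissue transcripts in varying amounts. In such whole-tissue samples, fewer cells of a type and less RNA per cell cannot be told apart. Libraries differed in B and T cell transcripts within both groups, with 12 markers summing to 1.21 to 72.1 FPKM in LPS glands and 3.75 to 169.8 FPKM in PBS glands. Of these markers the immunoglobulin gene Ighm alone was at 0.497 to 47.5 and 1.51 to 123.5 FPKM.

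Of the 7 genes, Ptx3 and Pglyrp1 rose in LPS glands by limma, and none was called lower by it. Lyz1, Lyz2, Chil1 and Defb1 did not pass the test, and Reg3g was too low to enter it. Calls are adjusted p-values below 0.05 by limma with Benjamini-Hochberg adjustment over 11414 genes with at least 1 FPKM in at least 5 libraries. Over all these genes 2.63% were called higher and 0.605% lower. Every LPS library was above every PBS library for Ptx3 and Pglyrp1, a separation seen in 3.53% of tested genes (the opposite one in 1.22%), while for the other 5 genes the groups overlapped. On whole reads recovered from the FPKM, edgeR and DESeq2 also called Ptx3 and Pglyrp1 higher, among 2.67% and 4.98% of genes. DESeq2 called Lyz1 lower (adjusted p = 0.0243), among 2.73% of genes called lower, and edgeR did not. A list of changed genes deposited by the authors also has Lyz1 as lower, as given below.

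**Figure D1:**
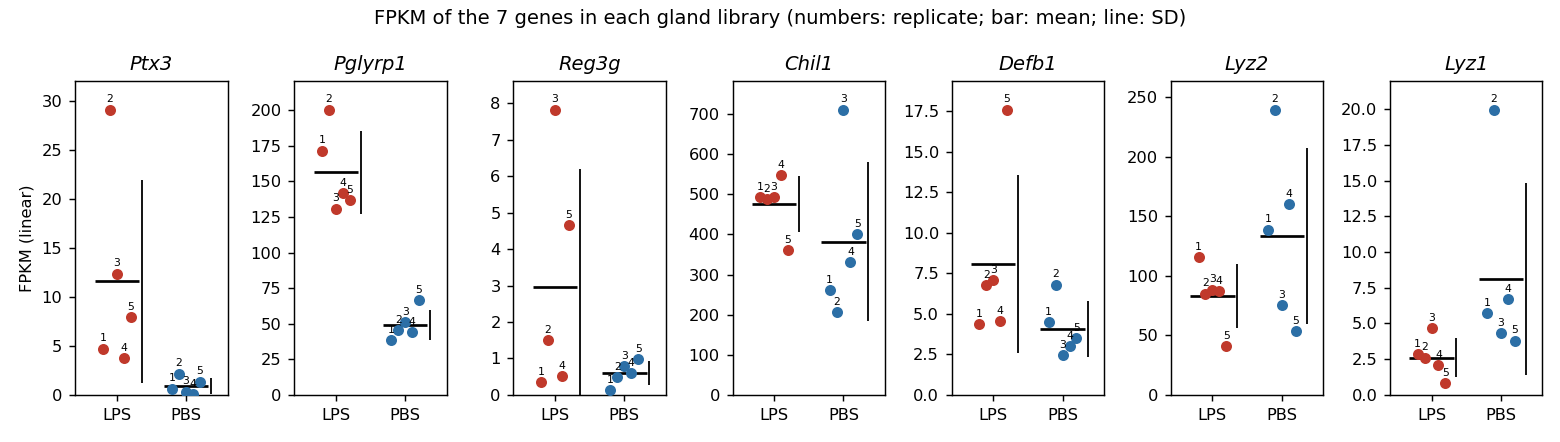
FPKM of each gene (vertical axis, linear, from 0) in the 5 LPS and 5 PBS libraries. Points are libraries with their replicate number, horizontal bars are group means, and vertical lines are 1 SD to either side, ended at 0. The LPS points lie above all PBS points for Ptx3 and Pglyrp1, and the groups overlap in the other panels.

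Ptx3 encodes pentraxin 3, a long pentraxin that binds microbial surfaces and complement components and is made at sites of inflammation by myeloid, endothelial and epithelial cells. Its gene (ENSMUSG00000027832) is protein-coding and lies on chromosome 3 from 66219910 to 66225805 on the plus strand of build mm10. It was at 4.72, 29.1, 12.4, 3.80 and 7.93 FPKM in LPS replicates 1 to 5, against 0.641, 2.19, 0.343, 0.1 and 1.35 FPKM in PBS replicates 1 to 5. LPS replicate 2 was far above the other LPS glands, and the lowest LPS gland was still above the highest PBS gland. The reads behind these values numbered 115 to 1003 in LPS libraries and 3 to 70 in PBS libraries, so the PBS level was set by few reads. Ptx3 rose by a log2 change of 2.48 ± 0.45 (SE, n = 5 per group; limma adjusted p = 0.0133), with group means of 11.6 ± 10.4 FPKM in LPS glands and 0.924 ± 0.847 FPKM in PBS glands (SD). It entered the test with 7 libraries at 1 FPKM or more, of which 5 were the LPS libraries. Veph1, on the opposite strand, overlaps Ptx3, and the labels do not state whether counting used strand.

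The size of the Ptx3 change depended on how low values were treated: it was 1.31 with a pseudocount of 5 and 3.59 with a pseudocount of 0.1. The call ended without a filter on low genes (adjusted p = 0.0572), and without LPS replicates 2 and 5 together (log2 change 2.0, adjusted p = 0.0603), the glands richest in neutrophil receptor transcripts. It also ended without LPS replicates 2 and 3 and PBS replicates 2 and 4 (log2 change 1.85, adjusted p = 0.0529). These are the 4 libraries with more than 1 FPKM of the B cell gene Cd79a. Both sets of libraries were chosen after the data were seen, and most calls of other genes ended with them too. With every library limma called 300 genes higher and 69 lower. It called 45 and 6 without LPS replicates 2 and 5, and 8 and 0 without the 4 libraries. On the recovered reads the log2 fold change of Ptx3 was 3.56 by DESeq2 (adjusted p = 0.000334) and 3.56 by edgeR (adjusted p = 0.0100). In the authors' deposited table Ptx3 had a log2 fold change of 0.80 with an adjusted p of 0.0050, a table that lists 2.64% of the genes above 0 as higher. How the authors computed their fold changes is not given in the sources used here. Their sizes, for Ptx3 and for other genes, are therefore not comparable with those given here.

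Pglyrp1 encodes peptidoglycan recognition protein 1, a bactericidal protein stored in neutrophil granules that also, together with peptidoglycan, engages the myeloid receptor TREM1. The authors' table places this protein-coding gene (ENSMUSG00000030413) on chromosome 7 from 18884690 to 18890438 on the plus strand of mm10. It was at 172, 200.4, 130.8, 142 and 137 FPKM in LPS replicates 1 to 5, against 38.4, 45.5, 51.4, 44.1 and 66.6 FPKM in PBS replicates 1 to 5. The lowest LPS library was well above the highest PBS library, and no library stood apart within its group. Means were 156.3 ± 29.2 FPKM in LPS glands and 49.2 ± 10.8 FPKM in PBS glands (SD, n = 5 each), a 3.18-fold difference. The log2 change was 1.65 ± 0.15 (limma adjusted p = 0.000241).

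Pglyrp1 was the steadier of the genes that rose. Its standard deviation was 18.7% of the mean in LPS glands and 21.9% in PBS glands, where that of Ptx3 was 89.4% and 91.7%. Under 23 other settings of the analysis its log2 change stayed between 1.47 and 1.77, with the highest adjusted p at 0.0342. The authors' deposited table gave it a log2 fold change of 1.39 and an adjusted p of 5.17e-15.

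The promoters of both genes are shown because they are the ones that rose. The sequences are RefSeq's for build GRCm38.p6, the 250 bases before the start that RefSeq annotates, given on the strand of the gene. Capitals mark GGGACTTTC, the first 9 letters of the classical binding sequence of the transcription factor NF-kB, found on either strand.

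Pglyrp1 (chr7:18884440-18884689, plus strand): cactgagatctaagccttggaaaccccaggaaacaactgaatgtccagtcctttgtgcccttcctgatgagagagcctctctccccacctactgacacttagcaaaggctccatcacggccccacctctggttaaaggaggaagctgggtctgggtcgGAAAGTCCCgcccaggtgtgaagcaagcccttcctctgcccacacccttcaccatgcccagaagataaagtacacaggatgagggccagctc
Ptx3 (chr3:66219637-66219886, plus strand): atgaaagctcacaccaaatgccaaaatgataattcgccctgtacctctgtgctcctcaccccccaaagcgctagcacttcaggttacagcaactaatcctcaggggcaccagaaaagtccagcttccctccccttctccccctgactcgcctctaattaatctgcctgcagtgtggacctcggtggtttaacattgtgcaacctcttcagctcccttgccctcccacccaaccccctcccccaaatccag

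The Pglyrp1 window held GGGACTTTC once, read on the opposite strand and with its first printed base 92 bases before the gene start, and 75 of 27025 mouse promoters of the same length (0.278%) held it. The pattern was shortened to these letters after its match in Pglyrp1 was seen, so that share does not measure how rare the match is. The same letters were not in the Ptx3, Lyz1, Lyz2, Reg3g and Chil1 windows, and Defb1 had no entry. A looser NF-kB pattern, common among promoters, matched in Pglyrp1 and also in Reg3g and Chil1, which were not called higher. TTCNNNGAA, the pattern of STAT factors, and TGANTCA, that of AP-1, were in none of the 6 windows and in 7.18% and 6.87% of all promoters. A match is a description of the letters and not of binding in these glands.

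Neutrophil markers are given beside these rises. Csf3r, the receptor gene of the granulocyte growth factor G-CSF, was at 3.93 to 15.6 FPKM in LPS glands and 2.24 to 3.78 FPKM in PBS glands, and Cxcr2, a neutrophil chemokine receptor gene, at 1.67 to 6.24 and 0.291 to 1.11 FPKM. Of 16 neutrophil markers 11 were tested, of which limma called Csf3r, Cxcr2 and Retnlg higher and none lower, where 2.63% of all tested genes were called higher. Without the filter on low values these calls ended, with adjusted p-values of 0.111 for Csf3r, 0.141 for Cxcr2 and 0.140 for Retnlg. Csf3r, Cxcr2, Retnlg, Hdc, Il1r2, Mmp8 and Mmp9 are listed as higher in the authors' deposited table, and none of the 16 as lower. Their adjusted p-values there run from 4.76e-05 for Hdc to 0.0093 for Mmp9, in a table that lists 2.64% of genes above 0 as higher. The summed FPKM of the 16 markers was 94.2 to 147.5 in LPS glands and 58.9 to 71.9 in PBS glands, and no marker was at 0 in all libraries. A large part of the sum was Cd177, a surface protein gene of neutrophils that was not called, at 34.8 to 97.4 FPKM in LPS glands and 23.2 to 46.6 FPKM in PBS glands. The granule protease genes Elane and Prtn3 and the peroxidase gene Mpo, all of the same list and below the filter, had lower means in LPS glands, with LPS to PBS ratios of 0.166, 0.71 and 0.182. For Elane and Mpo these ratios rested on PBS replicate 4, at 1.93 and 0.670 FPKM. The other PBS libraries were at 0 to 0.129 and 0 to 0.043 FPKM, and the LPS libraries at 0 to 0.180 and 0 to 0.060 FPKM. Both receptor genes were highest in LPS replicates 2 and 5. Ptx3 was highest in LPS replicate 2, while LPS replicate 5 was below LPS replicates 2 and 3 for Ptx3 and below LPS replicates 1, 2 and 4 for Pglyrp1. Without LPS replicates 2 and 5 Pglyrp1 had a log2 change of 1.59 (limma adjusted p = 0.0030), and the other LPS glands were still above every PBS gland for Csf3r and Cxcr2. The part of neutrophil number in either rise was not tested.

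**Figure D2:**
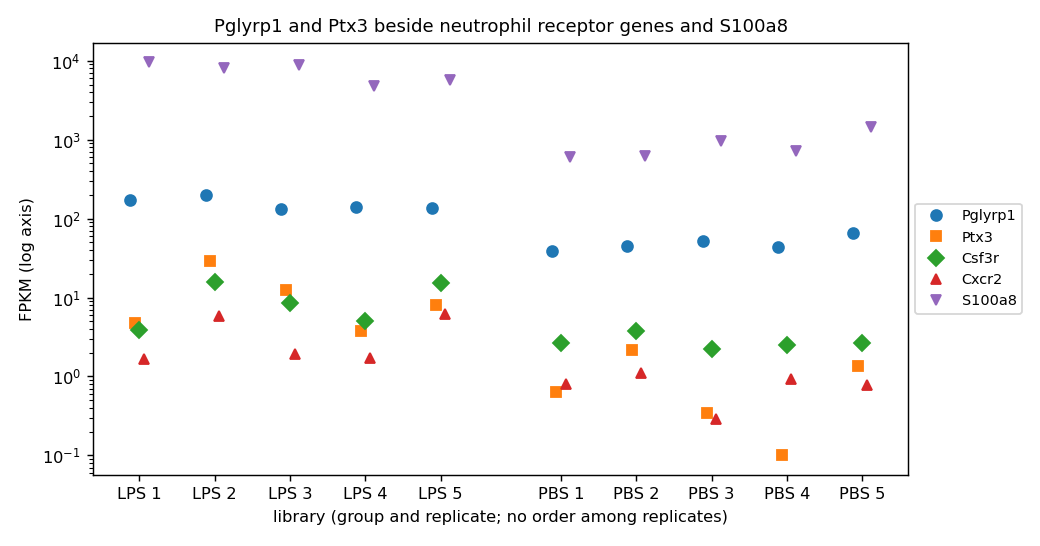
FPKM (vertical, log axis) of Pglyrp1, Ptx3, the neutrophil receptor genes Csf3r and Cxcr2, and the calprotectin gene S100a8 in each LPS and PBS library (horizontal). Pglyrp1 lies in a narrow band in each group, at 130.8 to 200.4 FPKM in LPS and 38.4 to 66.6 FPKM in PBS libraries, while Csf3r and Cxcr2 peak in LPS replicates 2 and 5.

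The lysozyme genes lie side by side on chromosome 10 on the minus strand of mm10. Lyz2, the M-type lysozyme of macrophages and neutrophils (ENSMUSG00000069516, 117277331 to 117282321), and Lyz1, the P-type lysozyme best known from Paneth cells of the gut (ENSMUSG00000069515, 117287796 to 117292868), are both protein-coding. Lyz2 was at 115, 85.1, 88.5, 87.2 and 40.9 FPKM in LPS replicates 1 to 5, against 139, 239.7, 75.7, 160.2 and 53.6 FPKM in PBS replicates 1 to 5. PBS replicate 2 was the highest of all libraries and LPS replicate 5 the lowest, and the groups overlapped over most of their range. The log2 change of Lyz2 was -0.56 with a 95% interval of -1.36 to 0.25 (limma adjusted p = 0.511), an interval that holds both no change and a large fall.

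Lyz1 was at 2.85, 2.62, 4.66, 2.08 and 0.840 FPKM in LPS replicates 1 to 5, against 5.73, 19.98, 4.35, 6.69 and 3.81 FPKM in PBS replicates 1 to 5. Only LPS replicate 3 reached into the PBS range, above PBS replicates 3 and 5. Means were 2.61 ± 1.39 FPKM in LPS glands and 8.11 ± 6.73 FPKM in PBS glands (SD, n = 5 each), of which PBS replicate 2 made a large part. The log2 change was -1.19 ± 0.38 with a 95% interval of -2.01 to -0.38, and the limma adjusted p of 0.113 did not pass. On the recovered reads DESeq2 called Lyz1 lower (adjusted p = 0.0243, among 2.73% of genes called lower) and edgeR did not (adjusted p = 0.0538), calling 1.16% of genes lower. The authors' deposited table lists it as lower, with a log2 fold change of -0.75 and an adjusted p of 0.0287, among 1.3% of genes above 0.

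Lyz1 and Lyz2 are recent copies, and how far their reads can be told apart bears on both values. The coding sequences of GENCODE M21 are both 447 bases long and differ at 22 positions, an identity of 95.1%. The first 150 bases from the start codon, which hold 14 of the 22 differences, are shown with differing bases in capitals.

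Lyz1: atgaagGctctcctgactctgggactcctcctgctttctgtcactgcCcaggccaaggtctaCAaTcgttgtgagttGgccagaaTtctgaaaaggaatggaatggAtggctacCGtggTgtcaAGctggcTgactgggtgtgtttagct
Lyz2: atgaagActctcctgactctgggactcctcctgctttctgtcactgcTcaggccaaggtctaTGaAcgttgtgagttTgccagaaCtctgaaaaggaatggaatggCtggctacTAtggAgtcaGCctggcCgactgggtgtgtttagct

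Of all stretches of 50 coding bases 20.1% were identical in both genes, and of those of 100 bases 5.46%, while the longest identical stretch had 118 bases. Reads that lie in such stretches fit both genes, the read length is not given in the sources used here, and the sequences are of the C57BL/6J reference and not of BALB/c, so the split of reads between the copies is uncertain. The gene lengths behind the FPKM were 1264 bases for Lyz1 and 1266 bases for Lyz2. The bases outside the coding sequences were not compared, so these shares do not cover all reads.

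Lyz2 was above Lyz1 in all 10 libraries. Lyz1 made up 2.01 to 5.0% of the reads of the pair in LPS glands and 3.96 to 7.68% in PBS glands, a share looked at after the values were seen. The share was lowest in LPS replicate 5, at 2.01% (95% Wilson interval 1.27 to 3.15%), and highest in PBS replicate 2, at 7.68% (7.01 to 8.41%). These intervals cover counting error only, since copies made by PCR are not told from separate molecules. In LPS replicate 3 and PBS replicates 1 and 4 the shares overlapped, at 5.0% against 3.96% and 4.00%. Summed over both genes, FPKM was 86.0 ± 27.7 in LPS glands and 141.8 ± 79.8 in PBS glands (SD, n = 5 each), and the groups overlapped.

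Macrophage and lymphocyte markers are given beside the lysozymes. The summed FPKM of 14 monocyte and macrophage markers was 49.8 to 99.5 in LPS glands and 61.1 to 154.7 in PBS glands, and it was lowest in LPS replicate 5 and highest in PBS replicate 2, as Lyz2 was. Between these extremes the orders differed, since LPS replicate 1 had the highest Lyz2 of the LPS glands and a marker sum of 78.8 FPKM, below those of LPS replicates 2, 3 and 4. Of these markers 11 were tested and limma called none, where 0.605% of all tested genes were called lower and 2.63% higher. None was at 0 in all libraries. The authors' deposited table lists Csf1r and Cx3cr1 of this list, receptor genes of macrophages, as lower, with log2 fold changes of -0.56 and -0.84 and adjusted p-values of 0.0360 and 0.0042. That table has 1.3% of genes above 0 as lower. C1qa, a complement gene of tissue macrophages, averaged 19.6 ± 6.22 FPKM in LPS glands and 29.9 ± 12.2 FPKM in PBS glands (SD, n = 5 each).

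The 12 B and T cell markers summed to 169.8 FPKM in PBS replicate 2 and 159.5 FPKM in PBS replicate 4, the libraries with the highest Lyz1 and Lyz2. A large part of these sums was the immunoglobulin gene Ighm, at 93.8 and 123.5 FPKM, and it was at 47.5 FPKM in LPS replicate 3. Among the other libraries the sums did not follow Lyz2, with 72.1 FPKM in LPS replicate 3 and 2.62 FPKM in LPS replicate 1, where Lyz2 was at 88.5 and 115 FPKM. Without LPS replicates 2 and 3 and PBS replicates 2 and 4, the 4 libraries with more than 1 FPKM of the B cell gene Cd79a, Lyz2 had a log2 change of -0.15 (limma adjusted p = 0.961) and Lyz1 one of -1.0 (adjusted p = 0.220). This leaves 3 libraries a group and takes out the PBS glands with the highest Lyz2. The part of macrophages or lymphocytes in the lysozyme levels was not tested.

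**Figure D3:**
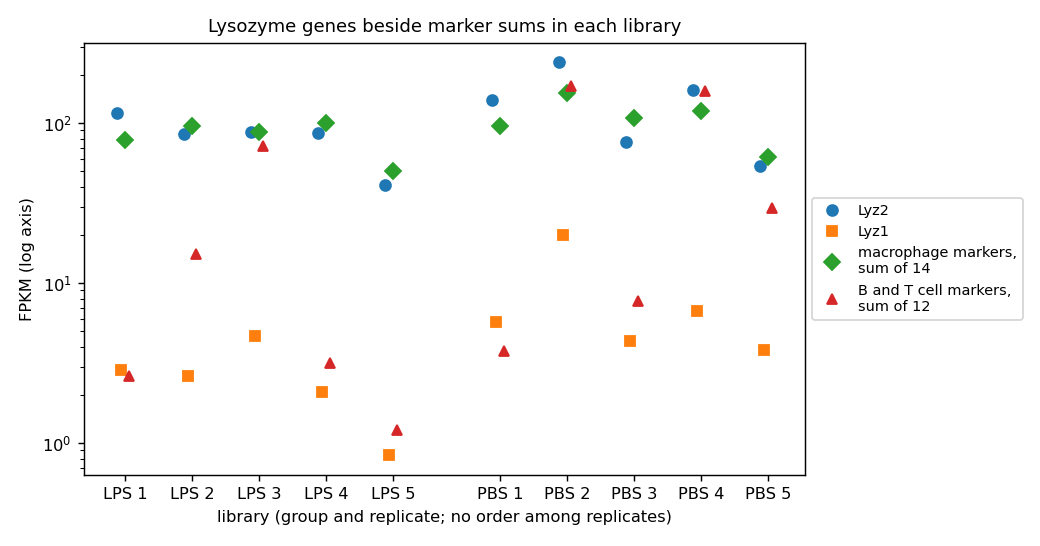
FPKM (vertical, log axis) of Lyz2 and Lyz1 with the summed FPKM of 14 macrophage and 12 B and T cell markers in each LPS and PBS library (horizontal). Lyz2 and the macrophage sum are lowest in LPS replicate 5 and highest in PBS replicate 2, and the lymphocyte sum exceeds 50 FPKM in LPS replicate 3 and PBS replicates 2 and 4. A large part of the lymphocyte sum in these libraries is the immunoglobulin gene Ighm.

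Chil1 encodes a chitinase-like protein, also called breast regression protein 39, which binds chitin without cutting it and is made by mammary epithelium and by macrophages. Its gene (ENSMUSG00000064246) lies on chromosome 1 from 134182176 to 134190181 on the plus strand. It was the most abundant of the 7 in 9 of 10 libraries, at 493, 488, 494, 548 and 360.1 FPKM in LPS replicates 1 to 5, against 261, 207, 711, 331 and 401 FPKM in PBS replicates 1 to 5. Both the highest and the lowest value came from PBS glands. The standard deviation was 14.6% of the mean in LPS glands and 51.8% in PBS glands. The log2 change was 0.44 with a 95% interval of -0.14 to 1.01 (limma adjusted p = 0.455). Without PBS replicate 3 it was 0.70 (adjusted p = 0.0712) and without PBS replicate 2 it was 0.25.

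Defb1, the beta-defensin that epithelia express without a stimulus (ENSMUSG00000044748, chromosome 8, 21776599 to 21795185, plus strand), was at 4.38, 6.76, 7.09, 4.53 and 17.6 FPKM in LPS replicates 1 to 5, against 4.50, 6.80, 2.44, 2.99 and 3.51 FPKM in PBS replicates 1 to 5. LPS replicate 5 stood apart from the other LPS glands, whose values lay partly inside the PBS range. Defb1 had a log2 change of 0.74 with a 95% interval of 0.06 to 1.42, and it did not pass (limma adjusted p = 0.253). Without LPS replicate 5 the log2 change was 0.44.

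Reg3g encodes a secreted C-type lectin that kills Gram-positive bacteria and is best known from the gut epithelium (ENSMUSG00000030017, chromosome 6, 78466269 to 78468872, minus strand). It was at 0.355, 1.5, 7.83, 0.510 and 4.66 FPKM in LPS replicates 1 to 5, against 0.132, 0.482, 0.793, 0.608 and 0.987 FPKM in PBS replicates 1 to 5. LPS replicates 2, 3 and 5 were above every PBS gland, and the other LPS glands lay within the PBS range. With 3 libraries at 1 FPKM or more Reg3g was not in the limma fit, and p was 0.143 by an exact permutation test (two-sided, 252 arrangements of the group labels) for a log2 difference of 0.95. Without LPS replicate 1, the lowest LPS gland, the difference was 1.24 (exact permutation p = 0.0397). Without any other single library the exact permutation p was 0.0635 to 0.278. In a limma fit without the filter Reg3g had an adjusted p of 0.529. Reads numbered 14 to 283 in LPS libraries and 5 to 33 in PBS libraries.

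The order of the levels differed between the groups at several places. In LPS glands the order was Chil1, Pglyrp1, Lyz2 from the top in 5 of 5 libraries, and their ranges did not overlap. In PBS glands Lyz2 was above Pglyrp1 in 4 of 5 libraries, and the ranges of these genes overlapped, as did those of Chil1 and Lyz2. Ptx3 was above Lyz1 in all 5 LPS libraries and in 0 of the PBS libraries. Among the low genes of LPS glands, Ptx3, Defb1, Reg3g and Lyz1, the ranges of neighbours overlapped. In PBS glands the ranges of Lyz1 and Defb1 overlapped, those of Ptx3 and Reg3g did too, and Defb1 was above both of these in all 5 libraries.

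**Figure D4:**
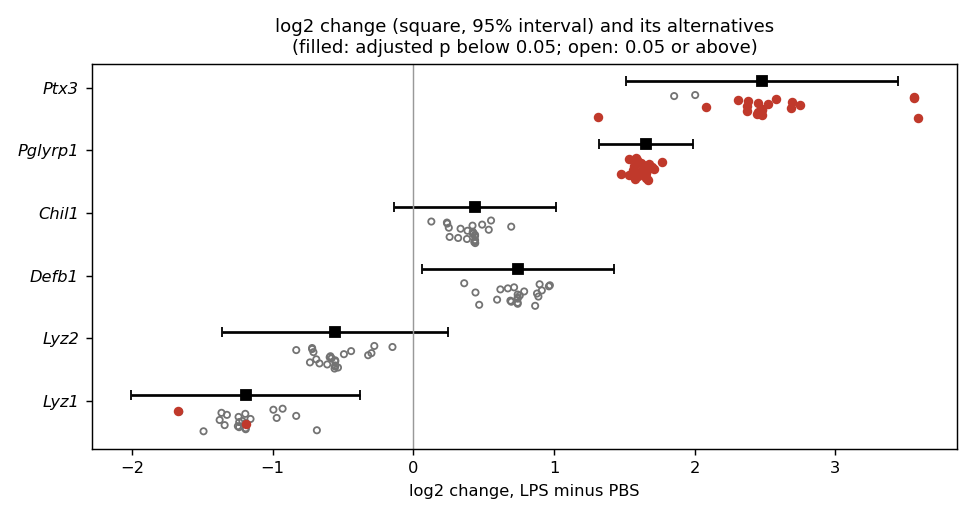
Log2 change, LPS minus PBS (horizontal), of the 6 tested genes: squares are the reported values with 95% intervals, and circles below them are the values under 23 other settings, filled where the adjusted p was below 0.05. Pglyrp1 is filled throughout between 1.47 and 1.77, Ptx3 has open circles for 3 settings (the one at 2.48 lies under filled circles), and Lyz1 has filled ones for 2.

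The families of the 7 genes and their partner genes were described by lists that include the 7 genes themselves, beside a median log2 change of 0.05 over all tested genes. Calls in these lists are limma's, of which 2.63% of all tested genes were higher and 0.605% lower. Of 16 pentraxin, collectin and ficolin genes 6 were tested and only Ptx3 was called; the short pentraxin gene Apcs was listed at 0 in all libraries. Of 9 genes of peptidoglycan recognition 5 were tested and only Pglyrp1 was called, with a median log2 change of 0.44. The related genes Pglyrp2, Pglyrp3 and Pglyrp4 did not pass the filter on low values. Of 10 genes of the lysozyme family 4 were tested and limma called none, with a median log2 change of -0.45, while DESeq2 and the authors' deposited table called Lyz1 lower, as given above. The family includes Lalba, the alpha-lactalbumin gene of milk sugar synthesis, at 3681 ± 503 FPKM in LPS glands and 4675 ± 762 FPKM in PBS glands (SD, n = 5 each; limma adjusted p = 0.279).

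Of 15 genes of the Reg family and its inducers and receptors 4 were tested and limma called none. The most abundant were Il10rb, a subunit of the interleukin-22 receptor, and Extl3, a Reg protein receptor, with limma adjusted p-values of 0.430 and 0.687. Il17rc, a subunit of the interleukin-17 receptor, had the largest log2 change of these 4, at 0.43 (limma adjusted p = 0.103). The authors' deposited table lists Il17rc as higher, with a log2 fold change of 0.38 and an adjusted p of 0.0486. Reg3b and Reg4 were listed at 0 in all libraries, and Il22, an inducer of Reg3g in the gut, was at 0 to 0.156 FPKM in LPS libraries and listed at 0 in every PBS library.

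Of 9 chitinase family genes and Chil1 receptor genes 5 were tested, and limma called Chil3. Chil3, a chitinase-like protein of activated macrophages and neutrophils also called Ym1, was at 1.22 to 3.10 FPKM in LPS glands and 0.424 to 0.909 FPKM in PBS glands, with a log2 change of 0.89 ± 0.17 (limma adjusted p = 0.0157). It passed the filter through the 5 LPS libraries alone, so it had to differ to be tested. Without the filter the call ended (adjusted p = 0.0557). Chil3 is listed as higher in the authors' deposited table, with a log2 fold change of 1.06 and an adjusted p of 0.000154. Reads could be shared with its near copy Chil4, listed at 0.

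Of 12 beta-defensin and cathelicidin-type genes 3 were tested and none was called. Camp, the gene of the cathelicidin stored in neutrophil granules, was at 2.60 to 4.67 FPKM in LPS glands and 1.08 to 3.07 FPKM in PBS glands (limma adjusted p = 0.0774). Of 25 other secreted antimicrobial genes 12 were tested, of which limma called S100a9, S100a8 and Wfdc21 higher and Lpo, the lactoperoxidase gene, lower. Without the filter the calls of Wfdc21 (adjusted p = 0.1) and Lpo (adjusted p = 0.126) ended. The authors' deposited table also lists Slpi and Wfdc17 of this list, which encode small whey acidic protein-type peptides, as higher, with adjusted p-values of 0.0099 and 0.0386. Lpo was at 16.7 ± 3.62 FPKM in LPS glands and 29.3 ± 8.22 FPKM in PBS glands (SD, n = 5 each; log2 change -0.76, limma adjusted p = 0.0469). It is listed as lower in the authors' deposited table, with a log2 fold change of -0.72 and an adjusted p of 0.0042.

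The genes Defb6, Defb3, Trem1 and Il13ra2, chosen after their values were seen, lay under the filter and did not pass a limma fit without it. The beta-defensin gene Defb6 was at 0.716 to 2.92 FPKM in LPS glands and 0 to 0.366 FPKM in PBS glands, and Defb3 at 0.802 to 4.24 FPKM in LPS glands and 0 to 0.909 FPKM in PBS glands. Trem1, whose product is a receptor of the Pglyrp1 protein, was at 0.567 to 3.96 FPKM in LPS glands and 0.021 to 0.317 FPKM in PBS glands. Il13ra2, which encodes a receptor of the Chil1 protein, was at 0.534 to 0.938 FPKM in LPS glands and 0.111 to 0.493 FPKM in PBS glands. The groups overlapped for Defb3. The groups did not overlap for Defb6, Trem1 and Il13ra2, a separation in the higher direction that 2.08% of all genes above 0 showed. In the limma fit without the filter the adjusted p was 0.0592 for Defb6, 0.0568 for Defb3, 0.118 for Trem1 and 0.0626 for Il13ra2. The authors' deposited table lists Trem1 and Il13ra2 as higher, with adjusted p-values of 0.0030 and 0.0098.

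**Figure D5:**
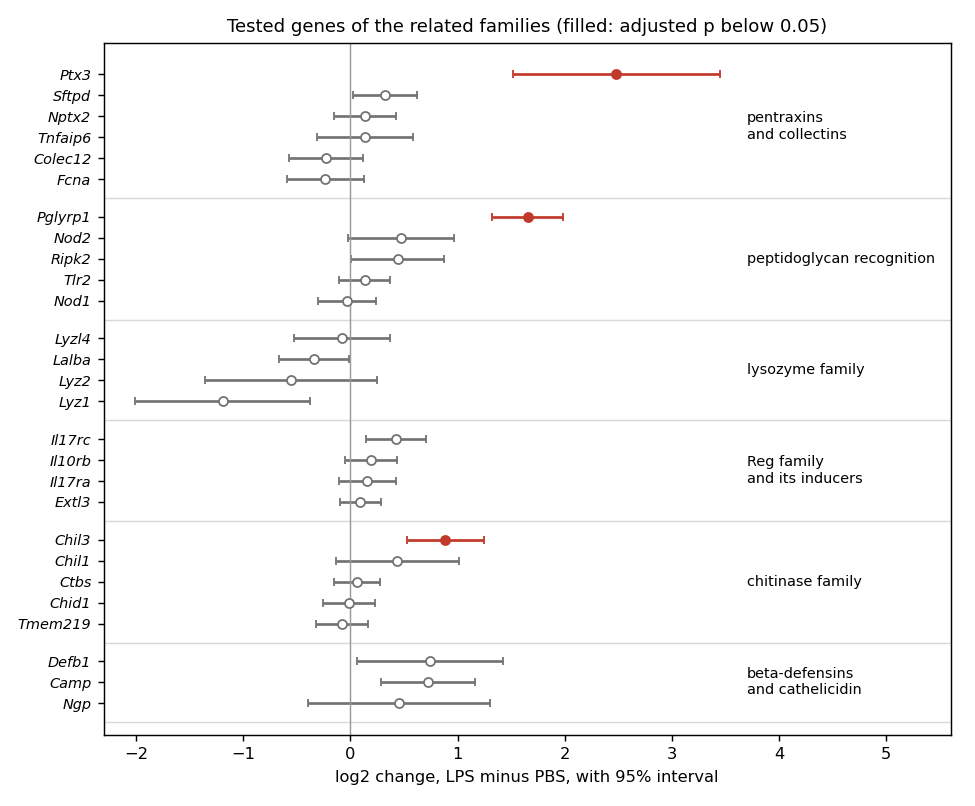
Log2 change, LPS minus PBS, with 95% interval (horizontal) of the tested genes of 6 lists of related families (vertical). Filled points have a limma adjusted p below 0.05: Ptx3 at 2.48, Pglyrp1 at 1.65 and Chil3, tested through its LPS libraries alone, at 0.89.

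Genes with the most similar profile over the 10 libraries were named for each of the 6 tested genes by the root-mean-square difference of standardised log2 values. The smaller this number, in SD units, the more alike the profiles, and a difference between the groups counts towards the likeness. For Pglyrp1 they were S100a9 (0.195), S100a8 (0.201) and Klk10 (0.251), where the median of all tested genes was 1.32. S100a8 and S100a9 encode calprotectin and Klk10 a kallikrein-type serine peptidase, and all 3 rose in LPS glands. For Ptx3 they were Anxa1 (0.192), Endod1 (0.217) and Pilra (0.223), all called higher in LPS glands. Anxa1 encodes annexin A1, a phospholipid-binding protein abundant in neutrophils and epithelia, and Pilra an inhibitory receptor of myeloid cells.

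For Lyz2 the closest profiles were those of Dpt (0.224), which encodes the matrix protein dermatopontin, Osgep (0.276) and Naxd (0.279), and for Lyz1 those of Igfbp3 (0.343), Tnrc6a (0.357) and Clk4 (0.362). For Chil1 they were Atf6b (0.376), Slc46a1 (0.377) and Cd81 (0.434), and for Defb1 Smox (0.354), Jpt2 (0.414) and Marcks (0.420). None of these 12 genes was called, and the closest profiles of Lyz1, Chil1 and Defb1 were less alike than those of Ptx3 and Pglyrp1.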

How the data were processed

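RNA of 5 LPS and 5 PBS mammary glands was sequenced. The submitters' processing notes name build mm10 and the tools DESeq2 (version listed as 2), HTSeq 0.6.1 and STAR 2.5; settings and annotation release are not given in the sources used here. FPKM values computed by the authors fill 1 deposited table, with a row for each gene. A second deposited table lists 908 genes with whole read counts, with a normalized signal (counts that the authors divided by 1 size factor per library), and with the authors' log2 fold changes and p-values.

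Genes reaching 1 FPKM in 5 or more of the 10 libraries were tested on log2(FPKM + 1) with limma 3.58.1 (intensity trend, two-sided, R 4.3.3), with group as the only term and a threshold of 0.05. Alternatives were other pseudocounts, filters, scalings and variance options, a replicate block, leaving out libraries, and edgeR 4.0.16 and DESeq2 1.42.0 on reads recovered from FPKM. Recovery used the depths and lengths of the listed genes: FPKM times depth and a whole-number length gave whole reads, within 0.002 reads, for 23059 of 23059 genes above 0, where the length was listed by the authors (908 genes), annotated (5947) or searched for (16204). A searched length was chosen to give whole reads, and it equalled the listed one for 906 of 908 genes. Fits left out no sample except where stated. The procedures were tested on simulated data of independent libraries, where every gene had the same spread beyond counting error. Those data do not cover glands that share animals, or genes as variable as Ptx3 and Reg3g.

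The 7 genes and the gene lists were chosen with earlier results of these data known. From each list the called genes of largest change were named, or, with none called, the most abundant; similar profiles were taken as the 3 closest named genes, leaving out predicted genes and pseudogenes. Positions of genes outside the authors' table are those of GENCODE M21. The NF-kB letters were shortened from 10 to 9 after the match in Pglyrp1 was seen, and a looser NF-kB pattern, common among promoters and also matched in Pglyrp1, Reg3g and Chil1, was searched and left out.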

Additional observations from a re-analysis of the deposited data

Results flagged for a closer look

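In 14 groups of 5 values, 7 genes in LPS and in PBS glands, 2 held a library far from the others by Dixon's test. For normally distributed values chance flags about 1 group in 20, and whether these FPKM values follow that distribution was not tested. Defb1 was at 17.6 FPKM in LPS replicate 5, where the other LPS glands lay at 4.38 to 7.09 FPKM, and Lyz1 was at 19.98 FPKM in PBS replicate 2, where the other PBS glands lay at 3.81 to 6.69 FPKM. PBS replicate 2 also had the highest Lyz2, macrophage marker sum and B and T cell marker sum of the PBS glands. The part of macrophages or lymphocytes in the Lyz1 value was not tested.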

How the results depend on the processing

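All 6 tested genes and Reg3g kept their direction under every alternative run. Calls changed for Ptx3 (log2 change 2.48 and adjusted p = 0.0572 without a filter; 2.0 and adjusted p = 0.0603 without LPS replicates 2 and 5; 1.85 and adjusted p = 0.0529 without LPS replicates 2 and 3 and PBS replicates 2 and 4) and for Lyz1, which passed with DESeq2 (-1.67) and with the replicate number as a block (-1.19, adjusted p = 0.0356). Both fits without several libraries were chosen after seeing the data. Leaving out 1 library gave log2 changes of 2.08 to 2.75 for Ptx3, 1.56 to 1.77 for Pglyrp1, -1.38 to -0.83 for Lyz1, -0.83 to -0.30 for Lyz2, 0.25 to 0.70 for Chil1, 0.44 to 0.91 for Defb1 and 0.56 to 1.24 for Reg3g, whose exact permutation p was 0.0397 without LPS replicate 1 and 0.0635 to 0.278 without another library.

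Of all tested genes 300 were higher and 69 lower, 81.3% of calls higher. The counts were 101 and 25 without a filter, 266 and 99 with median-of-ratios scaling (72.9% higher), 132 and 241 after rescaling to the FPKM sum that leaves out milk proteins (35.4%), and 231 and 132 after quantile normalization (63.6%). The milk rescaling moved the median change of all genes to -0.10. On recovered reads edgeR called 305 and 132 and DESeq2 546 and 300. Without LPS replicates 2 and 5 they were 45 and 6, and without LPS replicates 2 and 3 and PBS replicates 2 and 4 they were 8 and 0 by limma (829 and 240 at an unadjusted p below 0.05; no other tool was run). Leaving out 1 library gave 121 to 429 higher and 27 to 88 lower. Fits with fewer libraries test with less power.

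With the replicate block 962 of the 11414 tested genes were higher and 267 lower. Same-numbered libraries had correlations of their deviations from the group means of 0.482, 0.362, 0.0993, 0.103 and 0.494 for numbers 1 to 5, of which number 3 missed the 0.1 asked of every pair by a small margin. The labels do not say that a number marks an animal. By this measure 3 of 5 LPS and 2 of 5 PBS libraries correlated best with their own number, so the block is given as a comparison only. Depth limits Ptx3 and Reg3g in PBS glands, with 3 to 70 and 5 to 33 reads.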
